A study of Acipenser ruthenus with 15 samples.

Results

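The sterlet, Acipenser ruthenus, is a sturgeon with large yolky eggs. Section C, the middle segment of its egg, was compared with section B, the segment next to it on the animal side, to find the RNAs whose level steps up or down between the animal part and the middle of the egg. The members were the 3 libraries labelled section C and the 3 labelled section B, 6 of 15 libraries in all, taken by their labels alone. Each of the eggs numbered 10, 18 and 20 had been cut on a cryostat into 5 segments, A at the animal pole to E at the vegetal pole, and each segment was sequenced once, which makes n = 3 per section. The labels call the material oocyte of Stage 1, and no treatment, genotype or age is given. All libraries come from total RNA depleted of ribosomal RNA, with a kit designed for human, mouse and rat. Whether the eggs came from 1 female or several was not given in the sources used here, and the p-values speak for the spread between these eggs only.

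An egg stores RNA made by the mother before fertilization, and in many animals some of these RNAs are held near one pole. The animal pole lies by the egg's nucleus and the vegetal pole holds most of the yolk. In the frog Xenopus laevis, RNAs held at the vegetal pole include those of germ-layer determinants and of the germ plasm, the material that sets aside future germ cells. The deposited files name each RNA by the ID of an assembled transcript and do not pair these IDs with genes. As 0 of 42878 IDs matched the table of annotated sterlet genes, no gene name or role can be given to any transcript below, and markers of the egg or of the follicle cells around it could not be checked.

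The 3 libraries of section B held 6617562 to 11545215 counts and those of section C 4347026 to 12933192. In egg 10 section C was the deeper, and in eggs 18 and 20 section B was. Levels are CPM on library sizes corrected by TMM, a normalization that assumes most transcripts do not differ. A level is therefore relative to the other RNA of its library: more of a transcript in a section and less of all other RNA there cannot be told apart. Transcripts were called where the adjusted p was under 0.05 in edgeR's quasi-likelihood test with Benjamini-Hochberg adjustment over 29102 tested transcripts.

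The middle of the egg and the segment above it differed in 2531 transcripts, 8.70% of those tested. Of these, 1702 (5.85%) were higher in C and 829 (2.85%) were higher in B. Called changes of at least 2-fold numbered 880 (3.02%) higher in C and 180 (0.619%) higher in B. At least 4-fold changes were called for 386 transcripts (1.33%) higher in C and 42 (0.144%) higher in B. For at least 8-fold changes the numbers were 134 and 15 (0.460% and 0.0515%), and for at least 16-fold changes 42 and 10 (0.144% and 0.0344%). The median log2 change was 1.04 among the transcripts called higher in C and -0.61 among those called higher in B, against 0.01 over all tested. The split between the directions depended on the scaling. The share of calls higher in C was 67.2% with TMM, 51.7% of 2620 calls with total counts only, 36.2% of 2027 with the spike-in as scaling and 22.2% of 5151 with the deposited factor, the number by which the deposited normalized values of a library differ from its counts. With those scalings the median over all transcripts was -0.07, -0.31 and -0.21.

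**Figure D1:**
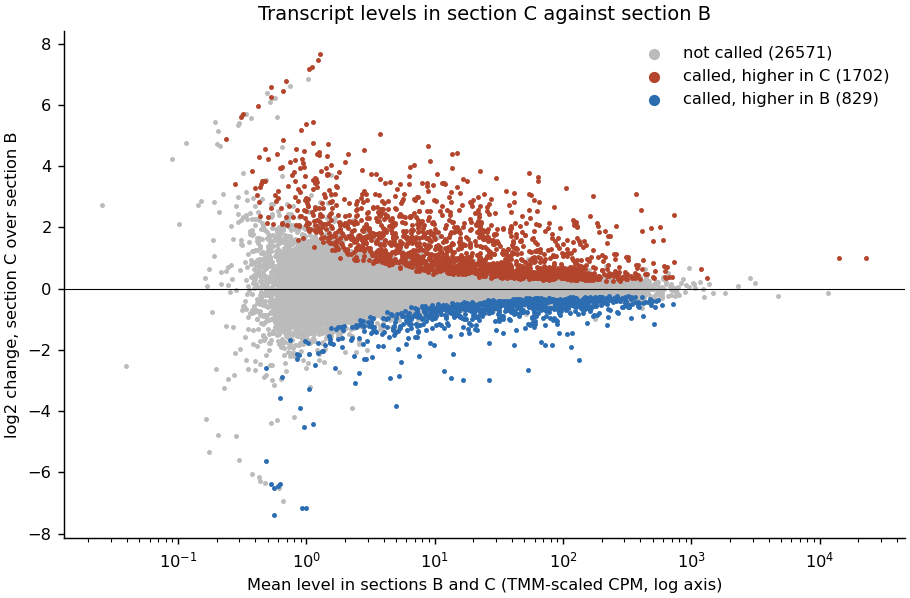
Each point is 1 of 29102 tested transcripts, with its mean TMM-scaled CPM over sections B and C on a log axis and its log2 change of section C over section B from edgeR. The 1702 transcripts called higher in C include 386 at or above 4-fold, against 42 of the 829 called higher in B.

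Called changes mostly went 1 way in 3 of 3 eggs, the same eggs that gave the calls. That held for 2507 called transcripts (8.61% of those tested), 1680 of the 1702 higher in C and 827 of the 829 higher in B, and for 12476 of all 29102 tested. The levels of all 3 libraries of C lay above all 3 of B for 1407 of the 1702 (4.83% of those tested), and below for 615 of the 829 (2.11%). Over all tested transcripts, called or not, the groups did not overlap for 2720 (9.35%) with C above B and for 2016 (6.93%) with C below B.

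Each egg was also read against calls made without it, counted only among the 29102 transcripts tested with all eggs. Transcripts called higher in C from eggs 18 and 20 numbered 1085, and 1059 of them (97.6%) were also higher in C in egg 10, with a median log2 change there of 1.23. For egg 18 the share was 96.0% of 1021 and for egg 20 it was 98.2% of 953, with medians of 1.10 and 1.15. Of transcripts called higher in B from the other eggs, 95.2% of 583 were higher in B in egg 10, 96.8% of 348 in egg 18 and 96.4% of 330 in egg 20. Their medians in the egg left out were -0.51, -0.68 and -0.70. Among all tested transcripts, 50.3 to 50.7% were higher in C and 48.8 to 49.0% higher in B in the same eggs.

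The number called changed with the libraries left out. Leaving out egg 10, 18 or 20 gave 1670, 1370 and 1286 calls in all, with 1087, 1022 and 956 higher in C and 583, 348 and 330 higher in B. Leaving out 1 library gave 1612 without section B of egg 10 and 1609 without section C of egg 10, and 1692 to 2001 without any other library of B or C. The transcripts higher in B moved most, to 449, 508 and 475 without section B of egg 10, 18 and 20, and to 453 without section C of egg 10. Without the egg as a block, 1020 transcripts were called, 812 higher in C and 208 higher in B.

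Abundant transcripts were called more often, and by smaller changes. Below a mean of 1 CPM over sections B and C, 75 of 2445 transcripts were called higher in C and 18 higher in B. From 10 to 30 CPM the numbers were 407 and 195 of 5732, with median log2 changes of 0.91 and -0.63 among the called. At 100 CPM and above they were 236 and 187 of 2339, or 10.1% and 7.99%, with medians of 0.49 and -0.44. Below 1 CPM the medians among the called were 3.35 and -4.20, so a call of a rare transcript took a larger change at this depth.

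As the IDs carry no gene names, at most 2 transcripts per direction are named for the comparison of C with B, and others only as members of counts of 3 or fewer or where said. The transcript with the largest fold change higher in C, at a mean of at least 5 CPM, was trinitytrinLocGG_4994c3g1t2. In section B it stood at 1.61 CPM in egg 10, 0.248 in egg 18 and 0.141 in egg 20. In section C it stood at 23.5, 16.4 and 11.8 CPM in those eggs, so the groups did not overlap. Its mean was 25.8 times as high in C (17.2 ± 5.92 CPM, SD, n = 3) as in B (0.667 ± 0.82), a log2 change of 4.64 ± 0.32 (SE; edgeR, Benjamini-Hochberg adjusted p = 2.92e-08). Of its 21 counts in section B, 17 were in egg 10, and the log2 change became 6.22 with that library left out and 6.03 with egg 10 left out. Its mean was 0.347 ± 0.0796 CPM in A, and beyond C it was 48.9 ± 11.1 in D and 94.5 ± 13.9 at the vegetal pole. The excess of its step over that from A to B, 3.66 ± 1 on the log2 scale, was not called (SE; edgeR, Benjamini-Hochberg adjusted p = 0.143). Over the step from C to D the excess was 3.14 ± 0.45 (SE; edgeR, Benjamini-Hochberg adjusted p = 0.00129).

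The transcript with the largest difference in CPM was trinitytrinLocGG_75266c0g1t1, which also had the highest mean level over sections B and C together. Section B held 14715, 18565 and 12563 CPM of it in eggs 10, 18 and 20, and section C held 31014, 38493 and 23228. Every library of C lay above every library of B, and within each egg the level rose by a log2 change of 1.08, 1.05 and 0.89. The fitted log2 change was 1.01 ± 0.14 (SE; edgeR, Benjamini-Hochberg adjusted p = 8.43e-05). In the animal segment A it stood at 19102 ± 2398 CPM (SD, n = 3) and in B at 15281 ± 3041, a log2 change from A to B of -0.36 ± 0.14 that was not called (SE; edgeR, Benjamini-Hochberg adjusted p = 0.263). Its step from B to C exceeded that from A to B by 1.37 ± 0.24 on the log2 scale (SE; edgeR, Benjamini-Hochberg adjusted p = 0.0109). Against the step from C to D the excess was 0.69 ± 0.23 and was not called (SE; edgeR, Benjamini-Hochberg adjusted p = 0.34), and the level was 38703 ± 9941 CPM in D and 43686 ± 3566 at the vegetal pole. Whether it is a ribosomal or mitochondrial RNA could not be checked without its name.

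Among transcripts higher in B in 3 of 3 eggs, the largest fold change at a mean of at least 5 CPM belonged to trinitytrinLocDN54680c0g3t1. It stood at 29.9, 19.9 and 39.0 CPM in section B of eggs 10, 18 and 20 and at 3.17, 2.38 and 6.21 CPM in section C. The groups lay far apart, with means of 29.6 ± 9.54 and 3.92 ± 2.02 CPM (SD, n = 3), 7.54 times as high in B. The log2 change was -3.00 ± 0.29 (SE; edgeR, Benjamini-Hochberg adjusted p = 1.75e-06). Its level in the animal segment A was higher still, at 91.3 ± 10.9 CPM, and in D and E it stood at 2.02 ± 1.36 and 2.46 ± 1.5 CPM. The log2 change from A to B, -1.69 ± 0.22, was also called (SE; edgeR, Benjamini-Hochberg adjusted p = 9.44e-05). Its fall from B to C was not called larger than the step from A to B or from C to D (edgeR, Benjamini-Hochberg adjusted p = 0.276 and 0.286).

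The 3 tested transcripts of the same assembly component, DN54680c0, were all called higher in B. One of them, trinitytrinLocDN54680c0g2t1, went from 91.9 ± 18.3 CPM in B to 14.8 ± 4.3 in C, 6.22 times as high in B. A component groups assembled sequences that overlap, and membership was read here from the IDs alone. These transcripts may share reads, so they cannot be counted as 3 independent RNAs. The component was looked at after its values were seen.

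The transcript with the largest fall in CPM was trinitytrinLocDN55105c0g1t4. It stood at 653, 693 and 748 CPM in section B of eggs 10, 18 and 20 and at 268, 325 and 363 CPM in section C, with no overlap. The log2 change was -1.14 ± 0.09 (SE; edgeR, Benjamini-Hochberg adjusted p = 2.71e-07). From A, at 1807 ± 331 CPM (SD, n = 3), to B it also fell, by 1.36 on the log2 scale (edgeR, Benjamini-Hochberg adjusted p = 4.19e-07). Beyond C it stood at 269 ± 16.9 CPM in D and 265 ± 27.2 in E.

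**Figure D2:**
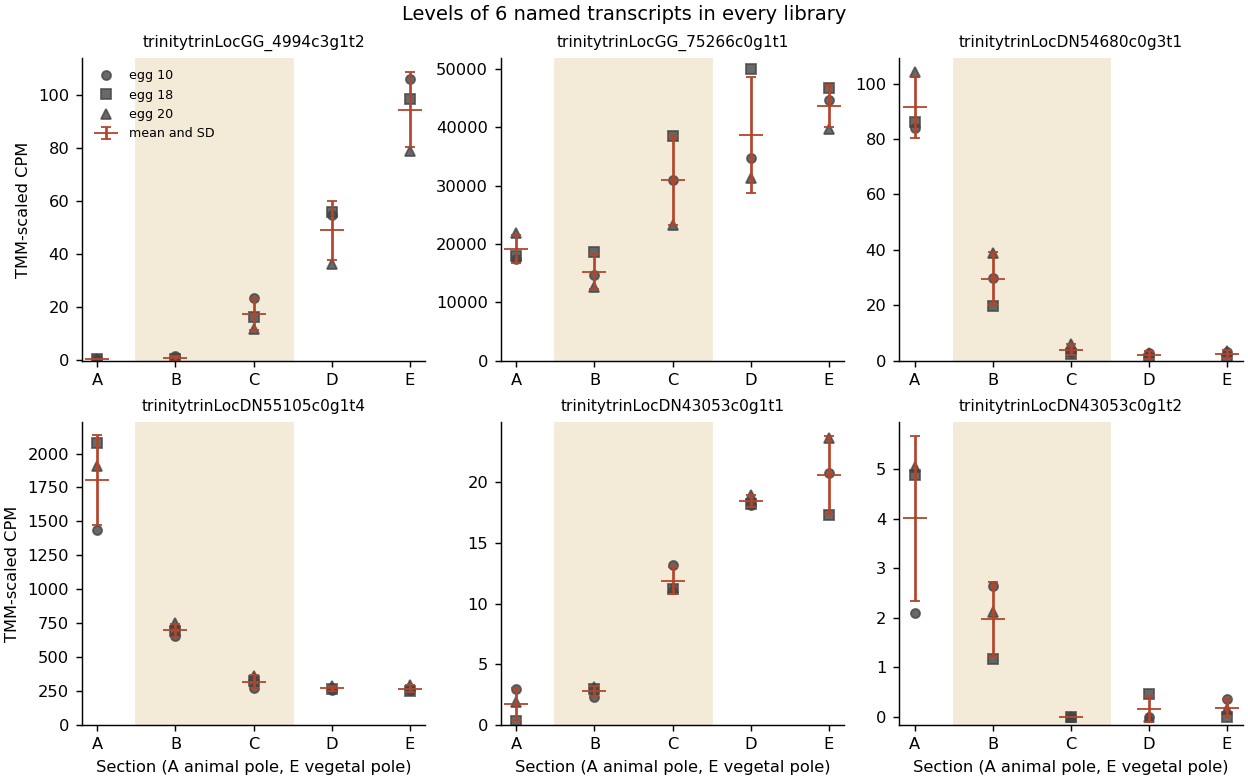
TMM-scaled CPM of 6 transcripts in each of 15 libraries, by section from A at the animal pole to E at the vegetal pole; symbols are eggs, bars are the mean and SD over 3 eggs, and the shaded band marks sections B and C. The 2 transcripts from GG_4994 and GG_75266 and the t1 transcript of DN43053c0g1 lie higher in every library of C than in any of B, and the other 3 lie lower.

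One assembly gene changed in opposite directions through its separate transcripts. Of 601 assembly genes with at least 2 tested transcripts, 28 had at least 2 called, and in 27 of these the called transcripts went the same way. The exception, singled out after its values were seen, was DN43053c0g1. Its transcript trinitytrinLocDN43053c0g1t1 had 24, 36 and 22 counts in section B of eggs 10, 18 and 20 and 171, 75 and 51 in section C. That was 2.78 ± 0.443 CPM against 11.9 ± 1.14 (SD, n = 3), a log2 change of 2.10 ± 0.29 (SE; edgeR, Benjamini-Hochberg adjusted p = 9.71e-05).

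The other transcript of that gene, trinitytrinLocDN43053c0g1t2, had 28, 14 and 15 counts in section B and 0 in each library of section C. It was at least 4.41-fold lower in C, a bound computed with 3 counts per library of C (edgeR, Benjamini-Hochberg adjusted p = 0.00392). In A it had 115 counts over the 3 eggs, in D 6 and in E 5. The summed counts of the gene gave a log2 change of 1.35 toward C, so the direction of the second transcript is not that of the gene. Since it is not stated how reads were divided between transcripts of 1 gene, the split between them is uncertain.

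Among the tested transcripts, few had 0 counts in 1 of sections B and C and some in the other. The low-count filter in part sets this number, as such transcripts passed it through the sections where they had counts. Of the tested transcripts, 31 had 0 counts in all libraries of B and some in C. Of these, 12 (38.7%) were called, with 9 to 67 counts summed over section C, against 5.85% of all tested called higher in C. The 31 were picked by a difference between B and C, so a higher share is built in. In 8 of the 12 section A also had 0 counts. The median level of all 12 was 1.19 CPM in C, with 1.80 in D and 4.07 at the vegetal pole. In the other direction, 20 transcripts had 0 counts in C and some in B. Of these, 8 (40%) were called, with 27 to 57 counts summed over section B, against 2.85% of all tested called higher in B. The median level of these 8 was 1.16 CPM in B, with 1.11 in A, 0.566 in D and 0.618 at the vegetal pole. All of the 12 and the 8 called transcripts had counts in D and in E. A count of 0 over a section of these depths allows up to 3 counts, and such limits cover counting error only.

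Most transcripts called between C and B were called in the matching direction between D and A, a contrast without the libraries of B and C. Of the 1702 transcripts called higher in C, 1578 (92.7%) were also called higher in D than in A, 122 were not called and 2 were called lower. Of the 829 called higher in B, 767 (92.5%) were also called higher in A than in D, 61 were not called and 1 was called the other way. Over all tested transcripts, 14.9% were called higher in D and 14.0% higher in A (edgeR, Benjamini-Hochberg adjusted). The median log2 change of D over A was 1.70 for the transcripts higher in C and -1.11 for those higher in B, against 0.01 over all. In reverse, the shared calls made up 36.3% of the 4350 transcripts higher in D and 18.8% of the 4079 higher in A. Both comparisons come from the same fit over 15 libraries. They share the eggs, the filter, the scaling and the pooled spread, though the sections contrasted differ. The comparison of D with A gave 1309 transcripts higher in D and 15588 higher in A with the spike-in as scaling, and 2270 and 9331 with the deposited factor. The transcripts higher in both C and D then numbered 677 and 1065, and those higher in both B and A 1240 and 3640.

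**Figure D3:**
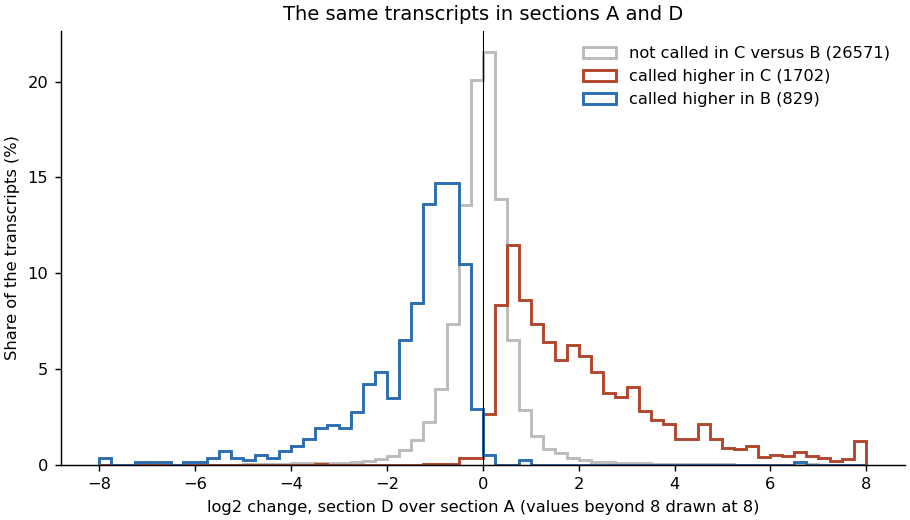
Distribution of the log2 change of section D over section A, as a share of each set in percent, for transcripts called higher in C, called higher in B and not called between C and B. The set higher in C has its median at 1.70 and the set higher in B at -1.11.

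These counts also changed with the libraries left out. D against A gave 8429 calls (29.0%), 7997 without egg 10, 5542 without egg 18, 5460 without egg 20 and 4605 without the block. Without egg 10, 18 or 20 the transcripts higher in both C and D numbered 1025, 969 and 919, and those higher in both B and A numbered 555, 330 and 321. The latter were 435, 473 and 452 without section B of egg 10, 18 and 20, and 429 without section C of egg 10.

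The 3 transcripts that went the other way between A and D were named for their small number. trinitytrinLocDN52779c2g2t2 stood at 101, 69.5 and 74.5 CPM in B and at 131, 93.1 and 105 in C, higher in C within each egg, with 105 ± 18.7 CPM in A (SD, n = 3), 77.4 ± 19.5 in D and 59.1 ± 11.4 in E. Its call ended with the spike-in as scaling (log2 change 0.12), with the deposited factor (0.21), without the block and without egg 20. trinitytrinLocGG_38632c0g1t1 had 1 count in B and 21 in C, 13 of them in egg 18, and trinitytrinLocGG_67836c3g2t1 had 37 counts in B, none of them in egg 20, and 0 in C. The calls of these rare transcripts ended in 8 of 17 and 9 of 18 alternatives.

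The transcripts that rose in C took up a larger share of the RNA from C to the vegetal pole. The 1702 made up 9.35, 9.47 and 8.58% of the tested counts in section B of eggs 10, 18 and 20 and 16.8, 16.5 and 14.1% in section C. That difference is built into the set. In the sections that did not choose it, the set held 8.80 ± 0.401% in A, 19.6 ± 0.557% in D and 21.8 ± 0.9% in E (SD, n = 3). Leaving out the 2 most abundant transcripts of the egg, the rest made up 5.82 ± 0.142% in A, 13.5 ± 0.702% in D and 15.1 ± 0.153% in E. The 829 transcripts higher in B held 10.0 ± 0.379% of the counts in A, 4.06 ± 0.332% in D and 3.77 ± 0.236% in E. They held 7.49, 7.04 and 7.89% in B and 4.91, 4.53 and 5.25% in C.

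**Figure D4:**
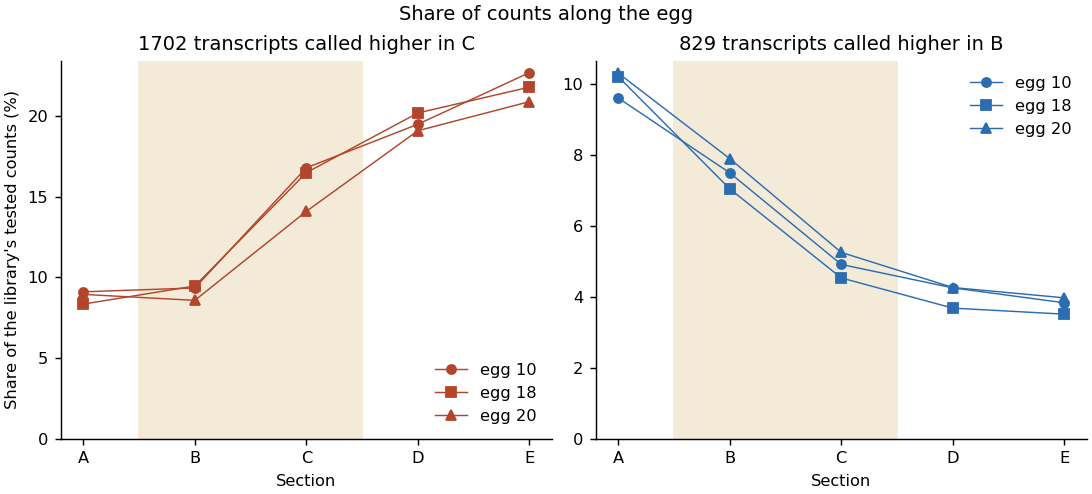
Share of each library's tested counts, in percent, held by the 1702 transcripts called higher in C (left) and the 829 called higher in B (right), by section; lines join the libraries of 1 egg and the shaded band marks sections B and C. In each egg the left set holds more of section C, 14.1 to 16.8%, than of section B, 8.58 to 9.47%.

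With TMM, most of the called transcripts had their highest level in a segment nearer to a pole. Of the 1702 higher in C, 1182 had their highest mean level in E, 327 in D, 189 in C and 4 in A. Of the 829 higher in B, 664 had their highest mean in A, 161 in B and 4 in E. Among the former, 69.4% were highest in E and 11.1% in C, and among the latter 80.1% in A and 19.4% in B. Over all tested transcripts 26.7% were highest in A and 26.2% in E, while B held 17.2%, C 14.9% and D 15.1%. A call higher in C or in B limits the sections that can be highest, since neither set can peak in the other section. For the 189 highest in C, the level in C was a median of 1.12 times that in D and 1.20 times that in E. For the 161 highest in B, the level in B was a median of 1.06 times that in A. These ratios cannot be below 1, since the sets were chosen by their highest mean. Of the 189, 6 were called higher in C than in D, and of the 161, 0 were called higher in B than in A. Over all tested transcripts these shares were 0.505% and 0.735%, so the 0 says little. Both comparisons reuse libraries that chose the sets. The peak sections and the ratios above were read with TMM only and can move with the scaling. Over all tested transcripts, the median log2 step into D was 0.01 with TMM, -0.35 with the deposited factor and -0.58 with the spike-in. The step into E was -0.01, -0.25 and 0.20 in that order. For the 1920 transcripts called and at least 2-fold higher in D than in A, it was 0.20, -0.05 and 0.40.

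The step from B to C was set beside the steps before and after it. Between A and B, 986 transcripts were called (3.39%), 772 (2.65%) higher in A and 214 (0.735%) higher in B. Between C and D, 732 were called (2.52%), 585 (2.01%) higher in D and 147 (0.505%) higher in C. These splits also turned with the scaling. The share higher in B of the calls between A and B was 21.7% with TMM, 45.8% of 526 with the spike-in and 90.8% of 5789 with the deposited factor. The share higher in D of the calls between C and D was 79.9% with TMM, 67.6% of 695 with total counts only, 0.718% of 12542 with the spike-in and 3.23% of 10195 with the deposited factor. Without the libraries of egg 10, 18 or 20, the calls numbered 1045, 458 and 419 between A and B. Between C and D they numbered 665, 276 and 158. Those between A and B numbered 654 and 638 without section B of egg 18 or 20. Without section C of egg 20, 338 were called between C and D. With no block 391 were called between A and B and 187 between C and D. These comparisons share the libraries of B or of C with the one described here, and their numbers do not test whether the steps differ.

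The steps were therefore compared per transcript. The log2 change from B to C differed from the change between A and B in 181 transcripts (0.622%), with the signed change from B to C the higher in 174 (0.598%) and the lower in 7 (0.0241%). The 174 include 161 transcripts called higher in C and 3 called higher in B, and the 7 include 6 called higher in B. Against the change from C to D, 261 transcripts differed (0.897%), with the signed change from B to C higher in 235 (0.808%) and lower in 26 (0.0893%). The 235 include 231 called higher in C and 1 called higher in B, and the 26 were all called higher in B. For most transcripts called between B and C, no difference from the neighbouring steps was called, which does not show that the steps were equal. With the spike-in as scaling, 45 differed from the change between A and B, 24 with the higher and 21 with the lower signed change from B to C. With the deposited factor 4290 did, 161 higher and 4129 lower. With TMM, the 181 became 2 without egg 18 and 37 without egg 20. They were 46, 52 and 71 without section B of egg 10, 18 and 20, and 112 without section C of egg 10. The 261 became 98, 124 and 126 without egg 10, 18 and 20. Leaving out the library of egg 10 gave 153 for section B and 74 for section C. With no block for the egg, the step tests called 20 and 40 transcripts.

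A rise between B and C with a signed change above those of both neighbouring steps is termed a sharp rise here, whatever its size. It was called for 74 of the 1702 transcripts. Their median level went from 17.4 CPM in B to 98.4 in C. The median log2 change was 2.16 from B to C, against 0.50 from A to B and 0.72 from C to D. The range was 0.43 to 4.41 from B to C, -2.61 to 1.52 from A to B and -0.52 to 1.85 from C to D. The set thus also holds small rises and transcripts that fell in a neighbouring step. The set was chosen by these differences between steps, so they are built into it. Rises of at least 4-fold made up 48 of the 74. Of these 74, 51 were highest in E, 16 in D and 7 in C with TMM, and 71 were also called higher in D than in A. The number rested on all eggs, with 28, 2 and 23 transcripts left without egg 10, 18 and 20. Leaving out section B of egg 10, 18 or 20 left 25, 29 and 38, and leaving out section C of egg 10 left 26. With no block 7 were left, and with the spike-in as scaling 19. Both tests use the libraries of B and C, so they are not independent of each other.

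The steepest of these by excess over both neighbours, at a mean of at least 5 CPM, was trinitytrinLocGG_76841c1g1t1, a rule set after the values were seen. Section B held 5, 20 and 15 counts of it in eggs 10, 18 and 20, and section C held 255, 270 and 117. That was 1.41 ± 0.845 CPM against 28.6 ± 10.5 (SD, n = 3), and the means were 0.752 ± 0.0749 in A, 84.1 ± 25.5 in D and 126 ± 41.1 at the vegetal pole. Its step exceeded that from A to B by 3.60 ± 0.62 on the log2 scale and that from C to D by 2.88 ± 0.33 (SE; edgeR, Benjamini-Hochberg adjusted p = 0.00865 and 0.000165). The former call ended without egg 10 or 18, without section B of egg 10 or 18 and without the block. The latter ended only without the block.

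A fall from B to C larger than both neighbouring steps was called for 2 of the 829 transcripts, against 184 transcripts with such a fall at an unadjusted p under 0.05 in each test. One was trinitytrinLocDN54680c0g2t1, given above, which stood at 203 ± 11.4 CPM in A, 6.48 ± 1.7 in D and 6.24 ± 2.4 in E. The other, trinitytrinLocDN50264c0g1t1, stood at 154, 206 and 187 CPM in B and at 46.1, 47.2 and 49.0 in C of eggs 10, 18 and 20. It fell by 1.92 on the log2 scale from B to C, by 0.90 from A to B and by 0.62 from C to D. At most 1 such transcript was called without any 1 egg or any 1 library of B or C, and none without the block, where 61 passed at an unadjusted p under 0.05 (edgeR). With the spike-in as scaling neither of these transcripts passed against both steps (edgeR, Benjamini-Hochberg adjusted p against the step from C to D of 0.427 for trinitytrinLocDN54680c0g2t1 and 0.495 for trinitytrinLocDN50264c0g1t1). Of component DN54680c0, trinitytrinLocDN54680c0g3t1 passed against neither step with TMM. There trinitytrinLocDN54680c0g1t2 passed against the step from C to D but not that from A to B (edgeR, Benjamini-Hochberg adjusted p = 0.00317 and 0.0525).

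The place of the step was also read from transcripts chosen by the contrast of D with A, in the same fit. The 1920 transcripts called and at least 2-fold higher in D than in A had a median log2 change from B to C of 1.11, 0.83 and 0.82 in eggs 10, 18 and 20, or 0.92 ± 0.16 (SD, n = 3). Their medians were 0.26 ± 0.02 from A to B and 0.57 ± 0.13 from C to D, steps that include the libraries that chose them. The animal set, 1638 transcripts called and at least 2-fold higher in A than in D, had medians of -0.62 ± 0.14 from A to B, -0.53 ± 0.09 from B to C and -0.30 ± 0.10 from C to D. For the vegetal set the step from B to C was the largest of these 3 in each egg, except in egg 20 with the spike-in as scaling, where it was 0.39 against 0.79 from A to B. For the animal set it was -0.46 in egg 10, as from A to B, and in eggs 18 and 20 it was smaller in size than the step from A to B. It was the larger in eggs 10 and 18 with total counts only, in eggs 10 and 20 with the spike-in and in each egg with the deposited factor. These scalings move all transcripts of a step alike: with the deposited factor the median over all tested was 0.27 for the step into B and -0.19 for the step into C, with the spike-in 0.19 and -0.29, and with total counts 0.06 and -0.06. With TMM the median over all tested transcripts was 0.01 from B to C.

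Calls made under every scaling were counted. The other 3 scalings move the median of all transcripts toward B, by the amounts given above, and each called fewer transcripts higher in C. The cause was not tested. With TMM and these 3 alike, 705 of the 1702 were called higher in C and 729 of the 829 higher in B. The spike-in alone kept the same 705 and 729, so it set both numbers. The vegetal set had median steps from B to C of 0.66 ± 0.23 with the spike-in and 0.76 ± 0.17 with the deposited factor (SD over 3 eggs). The animal set had -0.84 ± 0.15 and -0.74 ± 0.10.

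**Figure D5:**
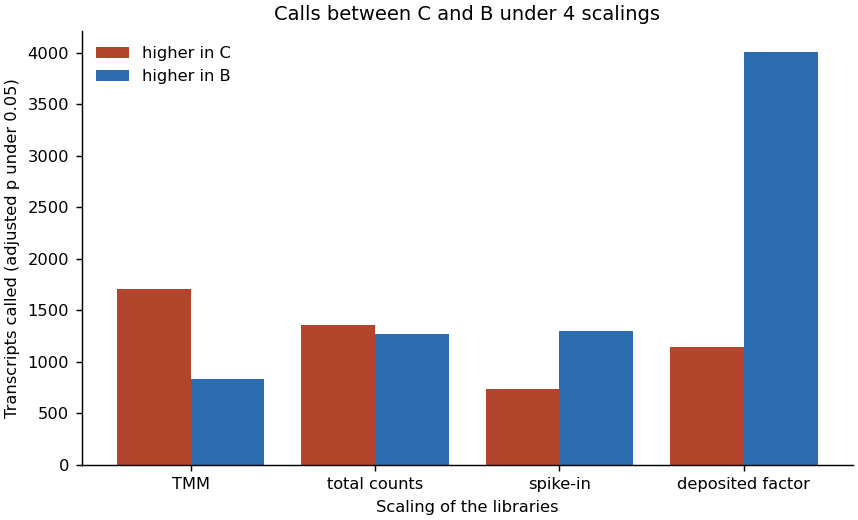
Number of transcripts called higher in C and higher in B (adjusted p under 0.05) under 4 scalings of the libraries. With TMM 1702 were higher in C and 829 higher in B, while with the deposited factor the numbers were 1145 and 4006.

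The scaling factors carry an error of their own that the tests leave out. The 4 transcripts named for the largest fold or the largest difference kept direction and call between C and B in all 20 alternatives tried. They were picked as the largest called changes, and the alternatives reuse the same libraries, so this is not an independent test.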

How the data were processed

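RNA was sequenced from 5 segments of each of 3 sterlet eggs with strand-specific libraries, per the labels' protocols. The authors deposited whole-number counts per assembled transcript, and a normalized signal that equals these counts divided by 1 number per library (called the deposited factor), a ratio that varied by a relative 9.8e-10 or less within a library. kallisto, DESeq2, Trimmomatic and STAR 2.5.2b are listed, with no roles, in the submitters' processing notes. How the transcripts were assembled was not given in the sources used here. Each file lists 42878 transcripts. The spike-in line, 0.0115 to 0.0235% of counts, was left out of the totals and of the tests.

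The deposited counts sum to 4347026 to 14500611 per library. filterByExpr in edgeR 4.0.16 (R 4.3.3) left 29102 transcripts, with at least 99.58% of the counts of each library. Libraries were scaled with TMM and tested with glmQLFit and glmQLFTest, with section and egg as additive terms over 15 libraries (8 residual degrees of freedom), Benjamini-Hochberg adjustment and a threshold of 0.05. Contrasts were C against B, D against A, and the difference between the step from B to C and each neighbouring step. Log2 values within eggs had 0.5 added to the CPM. DESeq2 1.42.0 was an alternative.

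The egg is a block because the segments come from the same egg. Deviations from the section means correlated at 0.415 to 0.724 between B and C of the same egg and at -0.61 to 0.0391 between different eggs. The deviations sum to 0 in each section, which in part sets the latter.

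Named transcripts had the largest fold change (mean of at least 5 CPM) or the largest difference in CPM per direction, among those called with 1 direction in 3 of 3 eggs. Others are marked as chosen later or as exceptions. The comparison, rules and alternatives were chosen with earlier results of these data known. Marker lists could not be applied without gene names. Counts of C-against-B calls by the calls of the neighbouring steps are not given, except for transcripts highest in C or in B. Those comparisons share libraries. Intervals between eggs are SD, and bounds from 0 counts cover counting error only.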

Additional observations from a re-analysis of the deposited data

Results flagged for a closer look

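Measures outside the comparison of transcripts also differed between C and B. The spike-in held 693 to 2090 counts in the libraries of B and C, above the 3 that a count of 0 allows. It stood at 149 ± 15.5 TMM-scaled CPM in section C (SD, n = 3) and 119 ± 10.4 in B, a ratio of 1.25, with C above B in 3 of 3 eggs. In eggs 10, 18 and 20 the levels were 162, 132 and 154 in C and 125, 125 and 107 in B. Egg 18 thus differed little, on 883 spike-in counts in C and 1514 in B. Relative to the library size after TMM, the deposited factor was 0.881 ± 0.00702 in C and 0.757 ± 0.004 in B, a ratio of 1.16. It hardly varied between eggs 10, 18 and 20, at 0.753, 0.757 and 0.761 in B and 0.874, 0.888 and 0.882 in C. The 3 eggs are therefore not shown to be 3 separate measurements of the factor, though C lay above B in each. An exact paired test over 3 eggs cannot go below p = 0.25, so no test is given. What the factor stands for and when the spike-in was added are not given in the sources used here.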

How the results depend on the processing

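DESeq2 size factors, both low-count filters, the robust variance and counts summed per assembly gene kept these counts within 1.5 times. The DESeq2 test did so with these exceptions. It gave 322 calls against the step from A to B, 310 with the higher and 12 with the lower signed change. Against the step from C to D it gave 41 with the lower signed change. Falls larger than both steps at an unadjusted p under 0.05 numbered 110 (DESeq2). Sections B and C alone gave 2806 calls for C against B, 1624 higher in C and 1182 higher in B. The share higher in C was then 57.9%, against 67.2% with all 15 libraries. Sections A and D alone gave 5714 calls for D against A, 2899 of them higher in D.

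With the deposited factor, C against B gave 5151 calls, 4006 of them higher in B, and 3640 transcripts were higher in both B and A. The tests against the steps from A to B and from C to D gave 4290 and 407, and 7 transcripts fell more than in both. With the spike-in 733 were higher in C and 1294 higher in B, 677 were higher in both C and D and 1240 in both B and A. It gave 16897 calls for D against A, 45 for the step from A to B, 19 sharp rises and 6 sharp falls, neither of the 2 named ones among them. With total counts only, 1265 were higher in B, 1162 in both B and A, and 120 differed from the step from A to B.

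Without the egg as a replicate block, C against B gave 1020 calls (812 and 208), D against A 4605, the step tests 20 and 40, the overlaps with D against A 792 and 205, with 7 sharp rises and 0 sharp falls (edgeR; 61 at an unadjusted p under 0.05). The cause of these differences was not tested.

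Leaving out an egg or a library of B or C gave 1286 to 2001 calls for C against B, 956 to 1445 higher in C and 330 to 591 higher in B. It gave 2 to 173 against the step from A to B, 74 to 192 against the step from C to D and 5460 to 8672 for D against A. The overlaps were 919 to 1367 and 321 to 555, with 2 to 71 sharp rises and 0 to 1 sharp falls (edgeR; 108 to 306 at an unadjusted p under 0.05).

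Of 255 values of named transcripts between C and B under alternatives, 233 kept direction and call and 21 lost the call. The reversal was trinitytrinLocDN43053c0g1t2, whose gene gave 1.35 when its transcripts were summed. Depth limits rare transcripts: section C of egg 20, with 4347026 counts, was the shallowest library.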

Other observations

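Transcripts with DN in their IDs and those with GG were called about equally often, 1646 of 18986 (8.67%) and 885 of 10116 (8.75%). What these letters stand for was not checked. The eggs differed in how many abundant transcripts passed 2-fold between C and B. Of 13059 transcripts with a mean of at least 10 CPM, 418 were at least 2-fold higher in C in egg 10, 306 in egg 18 and 297 in egg 20, while 76, 172 and 78 were at least 2-fold higher in B. Egg 18 thus had more than the others toward B. No replicate of an egg's segment was sequenced, so these differences between eggs were not tested.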
